A study of Mus musculus with 6 samples.

Results

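Stefins and intracellular serpins are inhibitors that keep proteases in check inside cells. The 10 genes described here were Stfa1, Stfa2, Stfa2l1 and Stfa3 of the stefin A cluster, Cstb and Cst3, which encode cystatins B and C, and Serpinb2, Serpinb6a, Serpinb8 and Serpinb10, which encode clade B serpins. They were picked by symbol among the 27179 genes of the deposited table, with earlier results of the same contrast known, so their differences between the groups are given as a description, without p-values, and support nothing by themselves. All 10 were found in the table. The RNA came from YFP+Mac-1+c-Kit+ leukemia-initiating cells (LICs) sorted from the bone marrow of C57BL/6 mice with acute myeloid leukemia (AML), whose age is given as 8 weeks. In this model a retrovirus that carries the MLL-AF9 fusion and YFP is put into lineage-negative fetal liver cells, which are then transplanted into lethally irradiated recipients, so every library of both groups held MLL-AF9+ cells. The libraries were 3 labelled Asic3-null, a label that stands for Asic3-/- donor cells, and 3 labelled WT, and the question was which genes differ in LICs without the acid-sensing channel ASIC3. The study's methods state in general terms that experiments were repeated biologically, but the labels do not say which libraries came from separate mice, so errors and p-values measure the spread between these libraries, which may be technical. The 4 stefin A genes and Serpinb10 had lower levels in the libraries labelled Asic3-null than in any labelled WT, Cst3 was slightly lower, Cstb overlapped, Serpinb6a was higher, and Serpinb2 and Serpinb8 were near the level of single reads.

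Stefins are small cytoplasmic proteins that block lysosomal cysteine cathepsins once these have left the lysosome. In the mouse the stefin A genes have multiplied into a tandem array on chromosome 16, and their transcripts are known from neutrophils and other myeloid cells. Cystatin B is the broadly expressed stefin, while cystatin C is secreted and binds the same proteases outside the cell. Clade B serpins lack a classical signal peptide, and most trap serine proteases by a change of shape that leaves inhibitor and enzyme bound together.

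The sequences just upstream of the stefin A genes are shown first, because these genes sit side by side and their levels moved together. The reference windows, from RefSeq for GRCm38.p6, held 250 bases before and 50 bases after each annotated start, and the last 100 bases before the start are printed 5′ to 3′ on the gene's strand. Capitals mark GAGGAGGAG and TTTAAAA.
Stfa1 (chr16:36277048-36277147, plus strand): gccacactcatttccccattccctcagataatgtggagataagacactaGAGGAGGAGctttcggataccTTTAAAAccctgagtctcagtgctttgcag
Stfa2 (chr16:36408364-36408463, minus strand): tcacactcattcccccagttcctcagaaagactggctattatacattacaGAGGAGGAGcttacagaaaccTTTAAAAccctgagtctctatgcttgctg
Stfa2l1 (chr16:36156711-36156810, plus strand): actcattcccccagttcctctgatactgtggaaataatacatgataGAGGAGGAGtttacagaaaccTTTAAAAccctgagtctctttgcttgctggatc
Stfa3 (chr16:36455393-36455492, minus strand): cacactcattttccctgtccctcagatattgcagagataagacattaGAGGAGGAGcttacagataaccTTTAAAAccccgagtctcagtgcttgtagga
Cstdc4 (chr16:36184112-36184211, plus strand): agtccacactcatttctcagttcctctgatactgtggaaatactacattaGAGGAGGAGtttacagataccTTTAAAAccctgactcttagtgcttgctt
Cstdc5 (chr16:36367571-36367670, minus strand): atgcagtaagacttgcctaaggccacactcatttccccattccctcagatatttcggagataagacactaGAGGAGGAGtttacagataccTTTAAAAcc
Csta2 (chr16:36221462-36221561, plus strand): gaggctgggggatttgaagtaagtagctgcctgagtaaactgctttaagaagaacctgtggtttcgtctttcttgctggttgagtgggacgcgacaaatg
All 4 stefin members carried GAGGAGGAG followed by TTTAAAA on the same strand. The former began at positions -51, -50, -54 and -53 before the starts of Stfa1, Stfa2, Stfa2l1 and Stfa3, and the latter at -30, -29, -33 and -31. Cstdc4 and Cstdc5 held the same pair of motifs, and the printed stretch of Csta2 held neither. Searched on both strands of the 250 bases before the start, GAGGAGGAG was found in 2.75% and TTTAAAA in 8.10% of 32851 windows. The pair, with at most 20 bases between them, was found in 8 windows, of which 7 belonged to this cluster (Stfa1, Stfa2, Stfa2l1, Stfa3, Cstdc3, Cstdc4 and Cstdc5) and 1 to Rhox5 on chromosome X. The windows of Csta1, Csta2 and Csta3 lacked the pair, and Cstdc6 was not searched. The longest run found in the windows of all 4 stefin members was ATTATTGGCACAGAG, 15 bases that began 242, 244, 247 and 245 bases before their starts. It was present in 5 of the 32851 windows, the fifth being that of Cstdc5. TATAAA (12.4% of windows) was in none of the stefin A windows, and TTGCNNAA (9.56% of windows) was in those of Stfa1, Csta3, Cstdc3 and Cstdc5. Both motifs are stretches that these duplicated genes have in common, so finding them within the cluster says nothing about the levels. The 4 members, Cstdc4 and Cstdc5 hold the pair and were lower in the Asic3-null-labelled libraries. Csta2 lacks it and was lower too (log2 fold change -3.02). These are matches of letters and not evidence of a bound factor.

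The stefin A genes are close copies, which bears on every value given for them. The last 100 coding bases before the stop codon, from GENCODE M21 transcripts, show how much of a read could tell them apart. Capitals mark the bases that differ from Stfa2l1.
Stfa2l1: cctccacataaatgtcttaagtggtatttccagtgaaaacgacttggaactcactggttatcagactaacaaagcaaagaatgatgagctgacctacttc
Stfa2: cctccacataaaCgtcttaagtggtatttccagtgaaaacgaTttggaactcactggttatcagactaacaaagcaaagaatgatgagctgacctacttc
Stfa3: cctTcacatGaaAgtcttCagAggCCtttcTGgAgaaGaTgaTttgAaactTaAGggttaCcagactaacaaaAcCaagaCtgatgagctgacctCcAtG
Stfa1: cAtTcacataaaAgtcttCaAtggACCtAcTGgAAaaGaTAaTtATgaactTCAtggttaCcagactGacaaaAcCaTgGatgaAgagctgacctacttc
Cstdc5: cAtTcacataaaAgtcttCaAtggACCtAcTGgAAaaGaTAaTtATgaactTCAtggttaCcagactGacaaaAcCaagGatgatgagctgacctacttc
In this stretch Stfa2 differed from Stfa2l1 at 2 bases, and Cstdc5 differed from Stfa1 at 2 bases. Over the whole coding sequence Stfa2 and Stfa2l1 were identical at 298 of 309 paired bases (96.4%), and Stfa1 and Cstdc5 at 285 of 291 (97.9%). Stfa3 was at most 83.7% identical to any other gene of the cluster. Cstb was between 56.6% and 65.0% identical to the genes of the cluster.

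**Figure D1:**
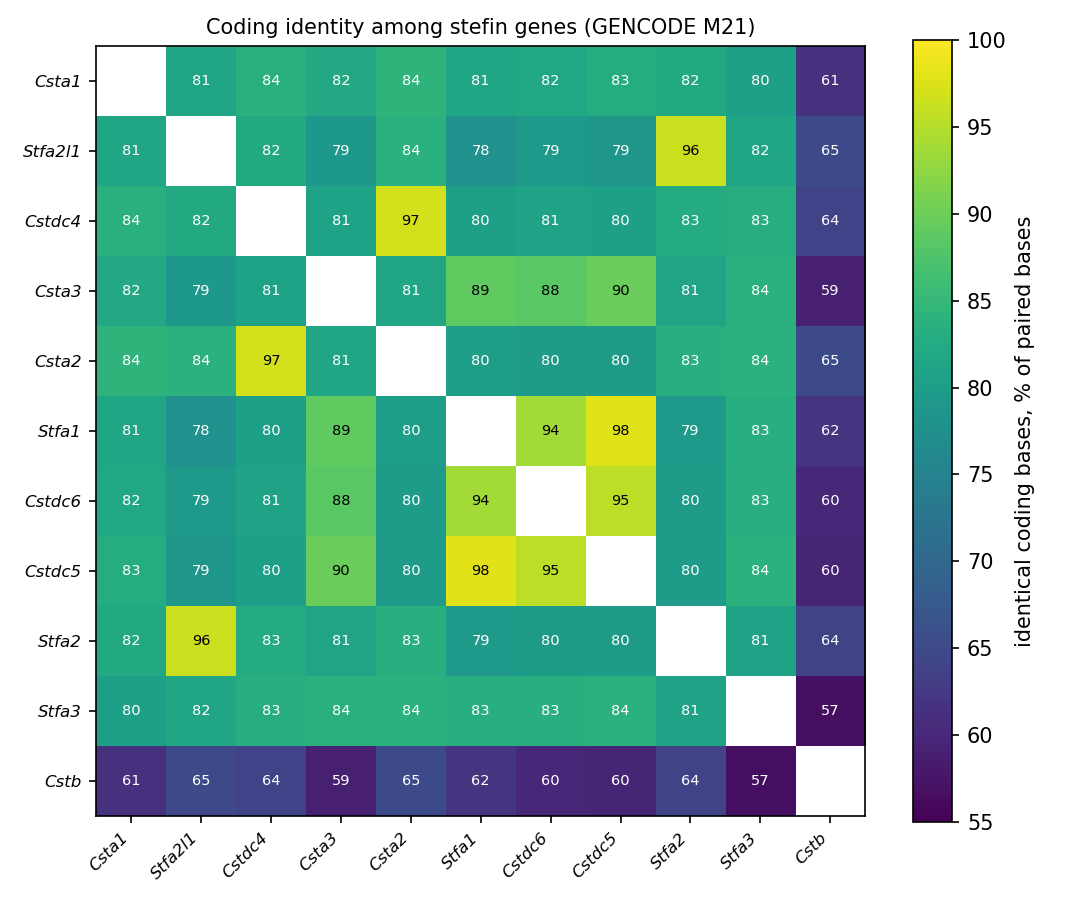
Each square gives the share of paired coding bases that are identical, in percent, for a pair of stefin genes, with the cluster genes in chromosome order and Cstb last. The pairs Stfa1 and Cstdc5 (97.9%), Csta2 and Cstdc4 (96.9%), and Stfa2 and Stfa2l1 (96.4%) stand out.

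Of all runs of 50 bases in the transcripts, 25.4% of those of Stfa1, 15.9% of those of Stfa2 and 24.6% of those of Stfa2l1 occurred without a mismatch in a transcript of another gene. For Stfa3, Cstb and Cst3 the share was 0%. With runs of 100 bases it was 1.93% for Stfa1 and 0% for the other 3 stefin members, but with 2 mismatches allowed against the other stefin A genes it was 24.8%, 30.6% and 35.6% for Stfa1, Stfa2 and Stfa2l1 and 0% for Stfa3. The read length and the treatment of reads with several matches are not given in the sources used here, so the division of reads between Stfa1 and Cstdc5, and between Stfa2 and Stfa2l1, is uncertain. Among the serpins, 13.1% of the 50-base runs of Serpinb6a occurred elsewhere, among them in Serpinb6b and Serpinb6c, and 2.88% of those of Serpinb10 occurred in Serpinb2. The kit does not mark strand, and the gene span of Serpinb6a (GRCm38, chromosome 13, 33917918 to 34002794) overlaps those of Nqo2, Ripk1 and 1110046J04Rik, so reads in shared stretches cannot be told apart.

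The library size recovered from the RPKM values, which are reads per kilobase of gene scaled to the library size, ran from 1947168 to 2381861 reads. In a gene of 1 kb, 1 read was worth between 0.42 and 0.514 RPKM. The targeted gene went against the labels, as Asic3 had 9.12, 4.11 and 6.58 RPKM in the Asic3-null-labelled libraries and 1.22, 1.85 and 0.435 RPKM in the WT-labelled ones, so directions are given by label throughout. Xist had between 46.5 and 71.9 RPKM in the Asic3-null-labelled libraries and at most 0.0573 RPKM in the WT-labelled ones, and Ddx3y had no read in the former and between 15.8 and 23.8 RPKM in the latter. Sex and genotype label therefore cannot be told apart. Itgam, which encodes the sorted surface antigen Mac-1, had 14.0 ± 2.51 RPKM in the Asic3-null-labelled libraries and 76.8 ± 18.8 RPKM in the WT-labelled ones (SD, n = 3 each), and Kit had 17.6 ± 2.99 and 11.1 ± 3.60 RPKM.

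Stfa1 was the most abundant stefin. It had 976, 514 and 611 RPKM in the WT-labelled libraries (replicates 1 to 3) and 131, 130 and 110 RPKM in the Asic3-null-labelled ones, on 1881 and 364 reads in all. Every WT-labelled library lay above every Asic3-null-labelled library, and the WT libraries were spread more widely. The mean level was 700 ± 244 RPKM against 124 ± 11.79 RPKM (SD, n = 3 each). On the log2(RPKM + 1) scale, which all fold changes here use, the difference of Asic3-null minus WT was -2.44 (standard error 0.22). The gene lies on chromosome 16 of GRCm38 from 36277148 to 36285371.

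Stfa2 showed the widest difference of the 4 as its reads were counted. Its levels were 79.8, 57.1 and 58.9 RPKM in the WT-labelled libraries and 3.06, 0.993 and 0 RPKM in the Asic3-null-labelled ones. These rest on 177 reads against 4, and Asic3-null replicate 3 had none. The ratio of read rates, WT over Asic3-null, was 48.6 with an exact 95% interval of 18.6 to 180.3, which covers counting error only, and the log2 fold change was -5.03 (standard error 0.43). Of the 4 reads, 3 lay in Asic3-null replicate 1, and without that library the ratio was 130.5 (23.1 to 5182). With any other library left out it lay between 32.4 and 51.3, an alternative added after the data had been seen. With a pseudocount of 1, a gene this low in a group has its fold understated. The rank of Stfa2 depends on how reads were divided between it and Stfa2l1. For the 2 genes together the ratio of read rates was 15.5 (10.9 to 22.8). That of Stfa3 was 10.8 (6.31 to 19.7), and these intervals overlap.

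Stfa2l1, the near twin of Stfa2, had 147, 84.4 and 95.9 RPKM in the WT-labelled libraries and 13.6, 8.11 and 8.23 RPKM in the Asic3-null-labelled ones. Its log2 fold change was -3.32 (standard error 0.25). Stfa3, whose sequence is the most distinct of the 4, had 62.3, 58.6 and 47.2 RPKM in the WT-labelled libraries and 6.29, 6.11 and 3.10 RPKM in the Asic3-null-labelled ones. Its log2 fold change was -3.25 (standard error 0.24), and the groups overlapped for neither gene. No run of 50 bases in Stfa3 occurred unchanged in another transcript. Against the other stefin A genes alone, with 2 mismatches allowed, 5.79% of the runs matched, the lowest share of the 4.

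**Figure D2:**
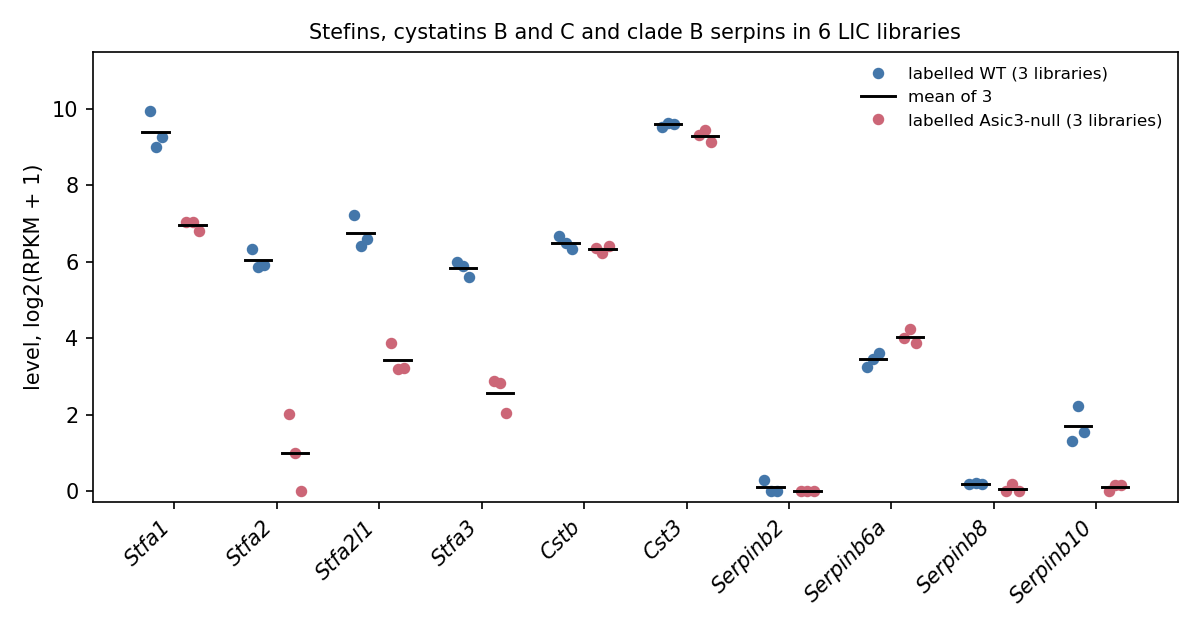
Points are single libraries and black lines the mean of 3, on log2(RPKM + 1), for the 10 genes, with WT-labelled libraries in blue and labelled Asic3-null in red. The 4 stefin A genes and Serpinb10 lie apart between the groups, Cstb overlaps, Serpinb6a lies higher in red, and Serpinb2 and Serpinb8 stay near 0.

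Because close copies can exchange reads in counting, their sums were also taken. The summed level of the 4 stefin members was 1265, 714 and 813 RPKM in the WT-labelled libraries and 154, 145 and 121 RPKM in the Asic3-null-labelled ones. The mean was 6.64 times higher in the WT-labelled libraries, a log2 ratio of -2.73 for Asic3-null over WT. This sum leaves out Cstdc5 and Cstdc6, with which Stfa1 could exchange reads. Stfa1, Cstdc5 and Cstdc6 together had 658, 365 and 401 RPM (reads scaled to the library size alone) in the WT-labelled libraries and 86.4, 73.0 and 62.6 in the Asic3-null-labelled ones. Stfa2 and Stfa2l1 together had 94.6, 59.1 and 64.6 RPM against 6.91, 3.78 and 3.41. The ratio of read rates, WT over Asic3-null, was 6.41 (exact 95% interval 5.84 to 7.05) for the former group and 15.5 (10.9 to 22.8) for the latter, whichever way their reads were divided within the group. These intervals too cover counting error only, and the spread between libraries is wider.

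The make-up of the array was also examined. Stfa1 took 45.3%, 40.2% and 45.5% of the reads of the 11 cluster genes in the WT-labelled libraries and 51.6%, 57.8% and 62.8% in the Asic3-null-labelled ones. Stfa2 took 3.75%, 4.52% and 4.44% against 1.22%, 0.448% and 0%. The share of Stfa1 was thus higher and that of Stfa2 lower in each Asic3-null-labelled library than in any WT-labelled one. Cstdc5 took between 24.2% and 26.1% in the WT-labelled libraries and between 18.8% and 26.8% in the others, with overlap. The shares in the Asic3-null-labelled libraries rest on 246, 223 and 172 reads for the whole cluster, against 1893, 1039 and 1330.

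**Figure D3:**
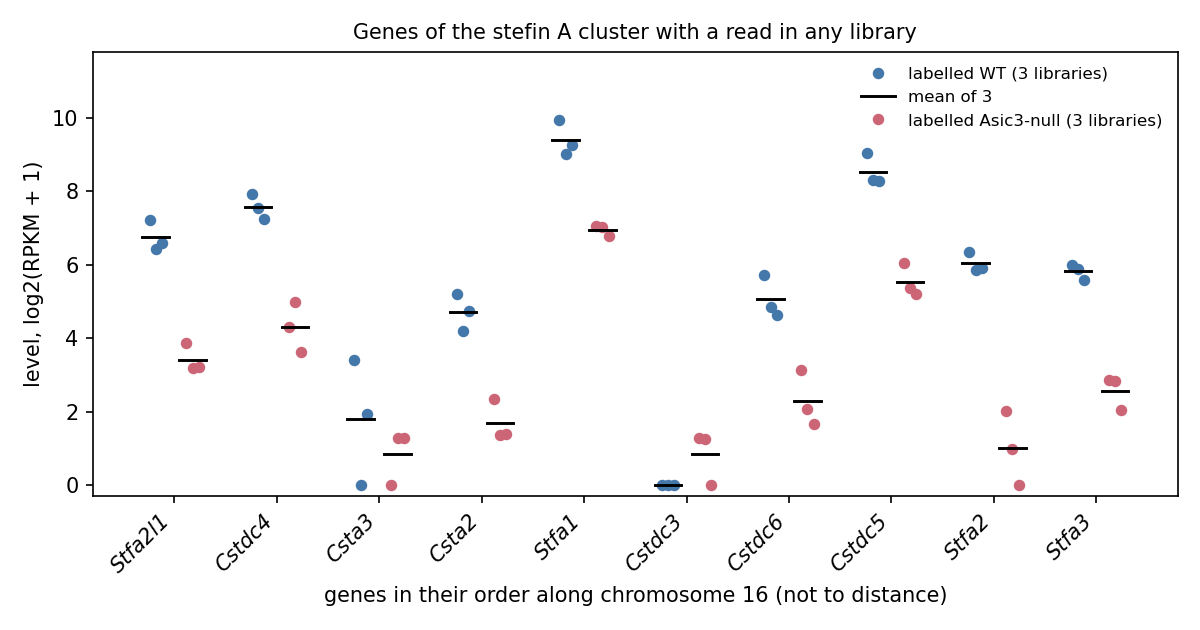
Levels as log2(RPKM + 1) of the stefin A cluster genes with a read in any library, in chromosome order, with points for libraries and lines for the mean of 3. Stfa1 is the highest and Cstdc5 the next highest in both groups, while Csta3 and Cstdc3 have the lowest means of the genes plotted in both groups.

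**Figure D4:**
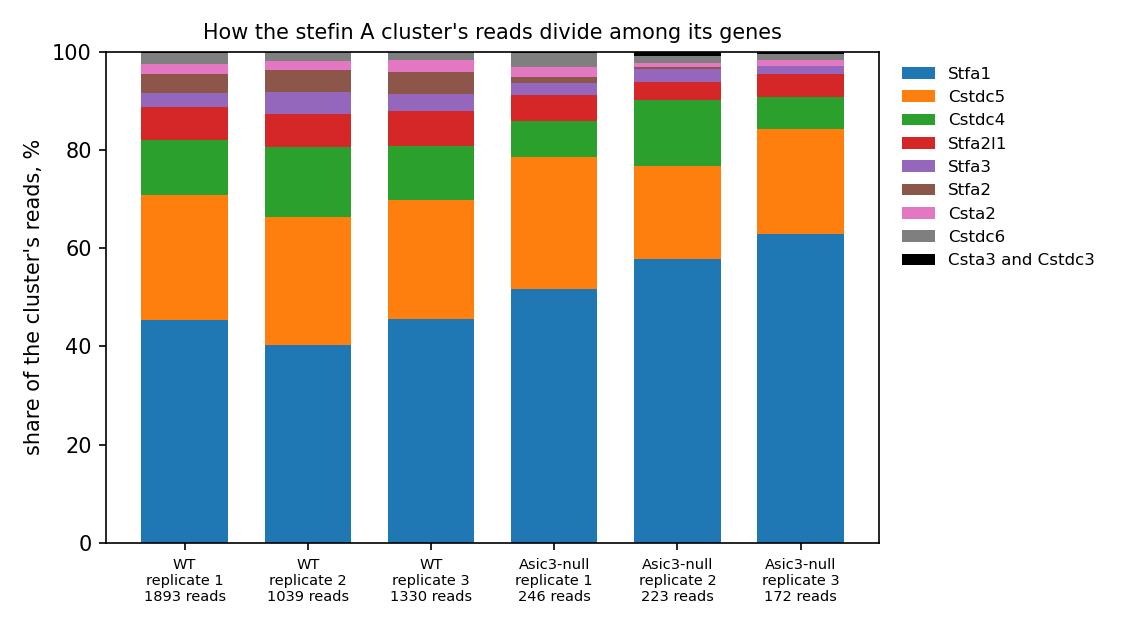
Stacked bars give the percent of the cluster's recovered reads that fell on each gene, by library, with the total reads under each bar. Stfa1 takes between 40.2% and 45.5% in the WT-labelled libraries and between 51.6% and 62.8% in the Asic3-null-labelled ones.

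Cstb and Cst3, which lie outside the array, differed far less. Cstb (chromosome 10, 78425670 to 78427622) had 101, 88.7 and 79.3 RPKM in the WT-labelled libraries and 81.8, 73.9 and 83.5 RPKM in the Asic3-null-labelled ones, and the groups overlapped. Its log2 fold change was -0.16 (standard error 0.13). Cst3 (chromosome 2, 148871722 to 148875512) had 742, 793 and 781 RPKM against 636, 693 and 558 RPKM. The groups did not overlap, and the log2 fold change was -0.30 (standard error 0.12).

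The clade B serpins ran in different directions. Serpinb6a, an inhibitor of cathepsin G among other serine proteases, had 8.56, 10.1 and 11.2 RPKM in the WT-labelled libraries and 15.1, 18.0 and 13.5 RPKM in the Asic3-null-labelled ones. It was the only member tested that was higher in the latter, with a log2 fold change of 0.59 (standard error 0.18) and no overlap. Serpinb10, also called bomapin and known from myeloid progenitors, had 1.499, 3.68 and 1.94 RPKM in the WT-labelled libraries and 0, 0.120 and 0.122 RPKM in the Asic3-null-labelled ones. The latter hold 2 reads in all, against 52, which gives a ratio of read rates of 28.6 with an exact 95% interval of 7.51 to 241.9 and a range of 19.2 to 38.1 with 1 library left out. Its log2 fold change was -1.59 (standard error 0.34), and it met the filter on low values only through the WT-labelled libraries.

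Serpinb2 and Serpinb8 were not detectable as expressed genes at this depth. Serpinb2, the plasminogen activator inhibitor PAI-2 of activated macrophages, had 1 read in all, in WT replicate 1. In the libraries with no read, the 3 reads that a count of 0 allows lay between 0.615 and 0.753 RPKM. Serpinb8 had 1 read in each WT-labelled library and 1 in Asic3-null replicate 2, so its values between 0.128 and 0.156 RPKM there differ by library size alone. No fold is given for either gene.

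Of the 8 members with a mean RPKM of at least 1, 5 were among the genes called in the limma fit over all 12037 such genes (adjusted p under 0.05), all in the direction lower in the Asic3-null-labelled libraries (Stfa1, Stfa2, Stfa2l1, Stfa3 and Serpinb10). Serpinb10 lost its call whenever 1 library was left out, or was then not tested, which leaves 4. Over all tested genes 2.82% were called lower and 0.523% higher, and the median log2 fold change was 0.03. The groups did not overlap for 6 of the 8 in the lower direction and for 1 in the higher, where 11.4% and 11.2% of all tested genes did so. The members were chosen from this contrast, so nothing is read from these counts.

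Ordered by level within the WT-labelled libraries, Cst3 was followed by Stfa1, Stfa2l1, Cstb, Stfa2, Stfa3, Serpinb6a and Serpinb10. Neighbours overlapped from Cst3 to Stfa1 and from Stfa2l1 through Cstb and Stfa2 to Stfa3, and were apart elsewhere. In the Asic3-null-labelled libraries the order was Cst3, Stfa1, Cstb, Serpinb6a, Stfa2l1, Stfa3, Stfa2 and Serpinb10. There the neighbours Serpinb6a and Stfa2l1 overlapped (13.5 to 18.0 against 8.11 to 13.6 RPKM), as did Stfa2 and Serpinb10. Cst3 was between 0.587 and 1.11 times the summed level of the 4 stefin members in the WT-labelled libraries and between 4.13 and 4.78 times in the Asic3-null-labelled ones.

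Maturation markers moved with the stefins. This list and all later ones were chosen with earlier results of these data known, so their counts and adjusted p-values are descriptive. All 11 tested neutrophil maturation markers of 13 listed, among them Camp, Ngp and S100a8, were lower in the Asic3-null-labelled libraries (limma adjusted p at most 0.0279), and the summed level of the list ran from 307 to 493 RPKM there and from 4354 to 5327 RPKM in the WT-labelled ones. Ly6g and Cxcr2 had means of 0.356 and 0.187 RPKM in the former and 0 and 1.08 RPKM in the latter. Over all tested genes 2.82% were called lower. Of 9 tested monocyte and macrophage markers of 11 listed, 5 were called lower, and the list summed to between 1119 and 1270 RPKM against 1664 to 1771 RPKM. Most of that sum was Ly6c2, with means of 1039 and 1316 RPKM, which was not called (log2 fold change -0.34, limma adjusted p = 0.166). The share of the stefin difference that goes with these markers was not tested, and in bulk RNA fewer cells of a type and less RNA per cell cannot be told apart.

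Markers of other lineages were read in the same way. The 7 erythroid markers in the table summed to 0.972 to 2.42 RPKM in Asic3-null-labelled libraries and 3.07 to 10.8 RPKM in WT-labelled ones. Of these only Hba-a1 was tested, and it was not called (limma adjusted p = 0.298). The 8 T cell markers summed to at most 0.741 RPKM in any library, and Ms4a1, Pf4, Ppbp, Prss34 and Fcer1a had no read. Mast cell and basophil markers summed to between 169 and 180 RPKM in the Asic3-null-labelled libraries and between 91.3 and 154 RPKM in the WT-labelled ones, with Gata2 called higher (adjusted p = 0.0440 from limma). Cd79b had between 37.3 and 49.0 RPKM over all 6 libraries, and the megakaryocyte list to between 7.54 and 23.1 RPKM, mostly Itga2b. Dendritic cell markers summed to between 280 and 348 RPKM against 285 to 393 RPKM, with overlap, and Flt3 and Irf8 made up most of it.

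The other stefin A cluster genes that were called went the way of the members. Of 5 tested cluster genes that are not members, 4 had an adjusted p under 0.05 and all 4 were lower, against 2.82% of all tested genes. Cstdc5 had 521, 316 and 308 RPKM in the WT-labelled libraries and 64.6, 40.0 and 35.7 RPKM in the Asic3-null-labelled ones, a log2 fold change of -3.005 (limma adjusted p = 6.31e-04). Cstdc4 had 242, 185 and 151 RPKM against 18.8, 30.4 and 11.3 RPKM, a log2 fold change of -3.27 (limma adjusted p = 9.28e-04). Csta2 and Cstdc6 fell by 3.02 and 2.77 on the same scale (limma adjusted p = 0.00191 and 0.00689). Csta3 was not called, Cstdc3 had 2 reads in all, both in Asic3-null-labelled libraries, and Csta1 had none. Cstdc5 and Cstdc6 hold runs of 50 bases that are also in Stfa1, so reads from them could be exchanged, while Csta2 and Cstdc4 shared no such run unchanged with a member.

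Outside the cluster, the tested inhibitors of the same families that are not members did not pass the test. Of 14 other cystatins in the table only Cst7, which encodes the leukocyte inhibitor cystatin F, was tested, with 84.4 ± 6.81 RPKM in the Asic3-null-labelled libraries and 80.0 ± 27.3 RPKM in the WT-labelled ones (SD, n = 3 each) and a limma adjusted p of 0.830. Of 24 other clade B serpins, 19 had no read in any library and 3 were tested. Serpinb1a, an inhibitor of neutrophil elastase and its relatives, was the most abundant serpin of this clade, at 63.7, 169 and 117 RPKM in the Asic3-null-labelled libraries and 111, 141 and 166 RPKM in the WT-labelled ones. Its log2 fold change was -0.34 (standard error 0.31, limma adjusted p = 0.635), and those of Serpinb1b and Serpinb1c were -0.19 and -0.34 (adjusted p = 0.851 and 0.711). Of the secreted serpins, Serpine2, Serpinf1 and Serpina3g were tested and none passed, with log2 fold changes of 0.65, 0.58 and 0.22.

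Several of the enzymes that cystatins and stefins bind were lower as well. Of 9 tested genes for cysteine cathepsins and legumain, 4 were called, all lower in the Asic3-null-labelled libraries, against the 2.82% of all tested genes. The list was chosen with earlier results of this contrast known, so the count is a description. Ctss, the cathepsin of antigen-presenting cells, had 265, 193 and 184 RPKM in the WT-labelled libraries and 104, 68.8 and 77.0 RPKM in the Asic3-null-labelled ones (log2 fold change -1.36, limma adjusted p = 0.00653). Ctsl had a log2 fold change of -1.06 (adjusted p = 0.00748), Lgmn, which encodes the asparaginyl endopeptidase legumain, -1.51 (adjusted p = 0.0145) and Ctsb -0.53 (adjusted p = 0.0475). Ctsz, the most abundant of them, had 422 ± 55.6 RPKM and 431 ± 19.9 RPKM (SD, n = 3 each), with an adjusted p of 0.915. The median log2 fold change of the 9 was -0.53. Lgmn did not hold its call when Asic3-null replicate 1 or 3, or WT replicate 1 or 2, was left out (adjusted p between 0.0502 and 0.0659), and Ctsb did not with any 1 library left out (0.0557 to 0.154).

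Summed over the 11 genes of that list, cathepsins and legumain reached 1153, 1074 and 1044 RPKM in the WT-labelled libraries and 820, 829 and 744 RPKM in the Asic3-null-labelled ones. Set beside the 4 stefin members, the enzymes were 0.911, 1.51 and 1.28 times these 4 in the WT-labelled libraries and 5.32, 5.73 and 6.13 times in the Asic3-null-labelled ones. Both quantities are RNA levels per length, and the ratio uses the values that chose the members. It leaves out Cstb and the other cluster genes, so a ratio to all stefins would be lower. Those other cluster genes summed to 861, 546 and 512 RPKM in the WT-labelled libraries and 96.8, 78.1 and 52.3 RPKM in the others.

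Serine proteases of the kind serpins inhibit were mostly not called. Of 6 tested, Elane, which encodes neutrophil elastase, had 631, 865 and 980 RPKM in the Asic3-null-labelled libraries and 1203, 1621 and 1711 RPKM in the WT-labelled ones, a log2 fold change of -0.88 (limma adjusted p = 0.0435). It did not hold when any Asic3-null library, or WT replicate 2 or 3, was left out (adjusted p between 0.0548 and 0.132). Prtn3, which encodes proteinase 3, and Ctsg, which encodes cathepsin G, had log2 fold changes of -0.38 and 0.43 (adjusted p = 0.317 and 0.289).

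Of 7 tested other protease inhibitors, 6 had a negative log2 fold change, with a median of -0.85, and 2 were called lower and 1 higher. Wfdc21 and Wfdc17, small proteins of the whey acidic protein family, fell by 3.66 and 1.93 on the log2 scale (limma adjusted p = 0.00107 and 0.00517). Wfdc21 had 3 reads in all in the Asic3-null-labelled libraries and met the filter on low values only through the WT-labelled ones. Slpi, the secretory inhibitor of leukocyte elastase, rose, with 2514, 3965 and 3110 RPKM in the Asic3-null-labelled libraries and 1840, 1740 and 1638 RPKM in the WT-labelled ones (log2 fold change 0.85, limma adjusted p = 0.0259). Slpi did not hold its call when Asic3-null replicate 2 or 3, or any WT library, was left out (adjusted p between 0.0504 and 0.0862). Spint2 was not called, with a log2 fold change of -0.07 (adjusted p = 0.865).

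**Figure D5:**
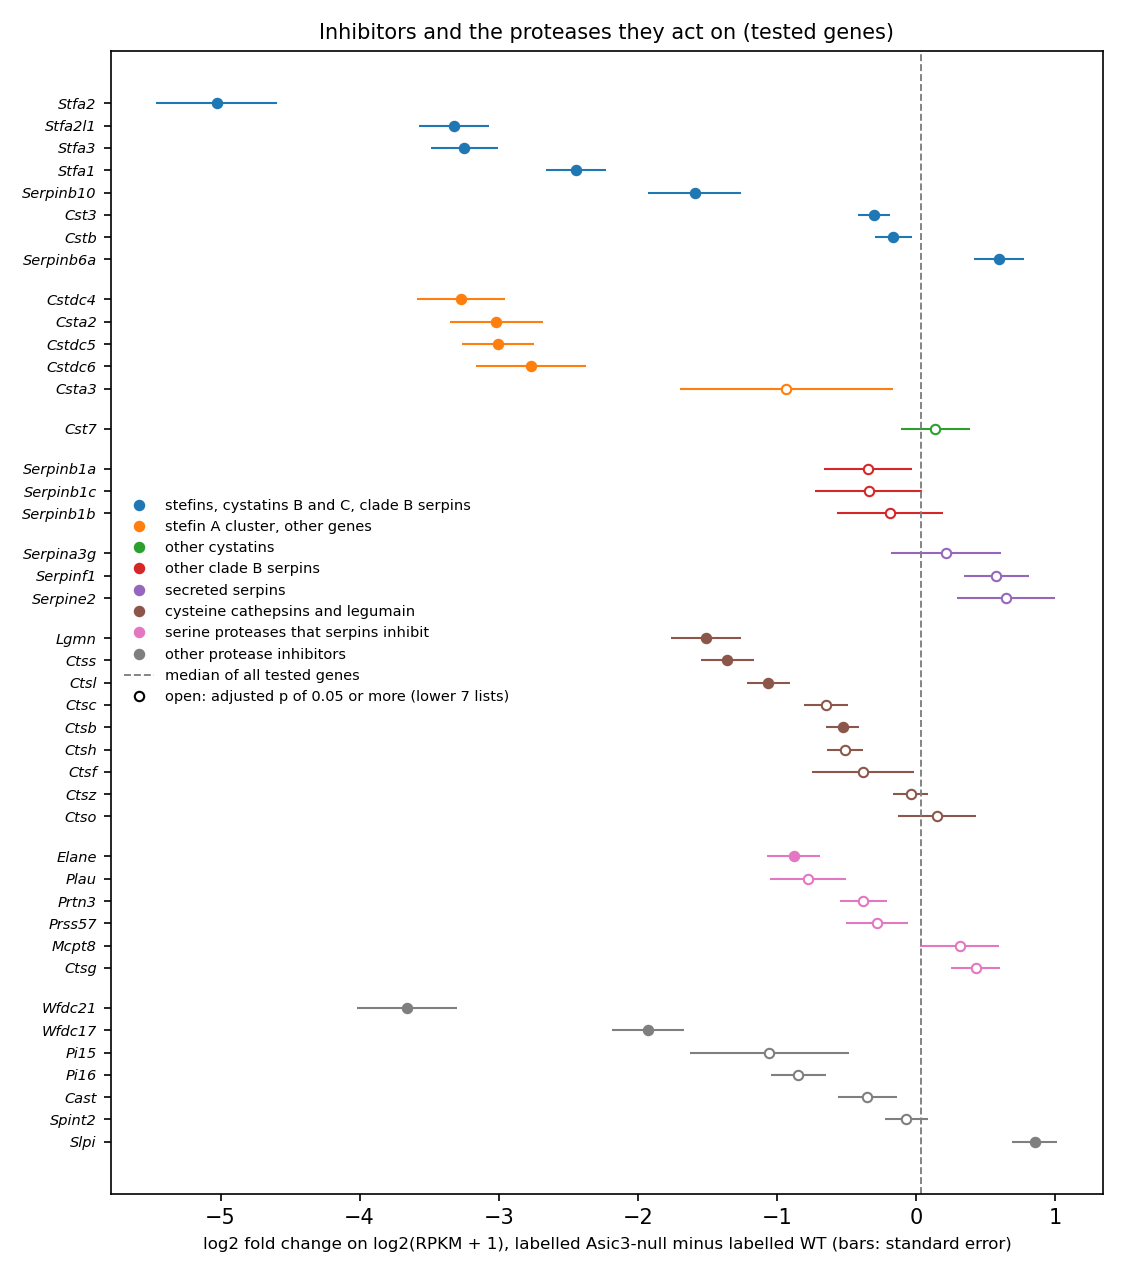
Log2 fold changes on log2(RPKM + 1), labelled Asic3-null minus labelled WT, with their standard errors, for the tested genes by list, and the median of all tested genes as a dashed line. Filled points passed an adjusted p of 0.05 except in the top list, whose points are all filled since it is a description without p-values. Stefin cluster genes lie between -5.03 and -0.93, and Slpi lies to the right at 0.85.

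None of the tested neighbours of the members outside the stefin A array passed the test. Within 250 kb of the 4 stefin members, 6 genes that do not belong to the array were tested, with log2 fold changes between -0.38 and 0.34. All 6 lie on the side of lower coordinates, so the flank beyond Stfa3 was not tested. Around Cstb, Cst3 and Serpinb6a, 6, 2 and 5 genes were tested, and no neighbour of Serpinb2, Serpinb8 and Serpinb10 reached the filter.

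Across the 6 libraries, the tested genes whose log2(RPKM + 1) was most like the summed stefin level were Bst1, Cd300lf and Ccl6 (Pearson r = 0.998, 0.997 and 0.997), all on other chromosomes. For Serpinb10 they were Fcnb, Tiam2 and C5ar1 (0.991, 0.99 and 0.986), for Cst3 Txnl4b, Hsd11b1 and Map3k14 (0.995, 0.991 and 0.982), for Cstb Etohd2 and Rnf13 (0.993 and 0.993), and for Serpinb6a Ttll5, Tcp1 and Nol10 (0.996, 0.995 and 0.994). Serpinb2 gave a value of 1.00 with Snord1b, Mir296 and Snord70 because its only read lay in the same library as theirs, and Serpinb8, with 4 reads, came closest to Ccdc91, Fxyd5 and 2810002D19Rik (0.9901, 0.986 and 0.984). These are descriptions over 6 libraries that fall into 2 groups, so the difference between the groups enters every r.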

How the data were processed

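RPKM values per gene and library, under Entrez numbers, were deposited by the authors, whose processing notes name CASAVA 1.8.2, TopHat2 2.0.12 and the build GRCm38. The counting tool and annotation are not given in the sources used here. Each of the 16825 genes above 0 gave whole reads (within 1e-07 reads) once gene length and library size were inferred from the deposited RPKM. Those reads are inferred, carry no molecular identifiers, and made up 99.6% to 99.7% of the library size. RefSeq (GRCm38.p6) gave symbols for 25275 of 27179 genes.

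The 10 genes and all lists were chosen with earlier results of these data known. Genes whose RPKM averaged 1 or more (12037) entered limma 3.58.1 (R 4.3.3) as log2(RPKM + 1), with the group as single term, an intensity trend, two-sided p-values adjusted by Benjamini-Hochberg and a threshold of 0.05. Named genes were the 10, Asic3, in each list the called genes and the 3 most abundant tested ones, and the 3 most similar genes by Pearson r. Some items under this rule are not reported here. Marker, sort and sex-linked genes, Csta1, Csta3, Cstdc3 and Rhox5 were named outside this rule, after their values were seen. Exact 95% intervals for read ratios are conditional on the summed reads. Python 3.11.15, numpy 2.4.6, pandas 2.3.3 and scipy 1.17.1 served the other steps. Alternatives were a pseudocount of 0.1, no filter, a filter at an average of 5 RPKM, scaling by median ratios or quantiles, no trend, the replicate block, limma-voom on the recovered reads and leaving out each library.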

Additional observations from a re-analysis of the deposited data

How the results depend on the processing

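The log2 ratio of the summed stefin level lay between -2.89 and -2.45 in all alternatives run. The members were chosen for this contrast, so their directions are no sign of stability. Serpinb10 was no longer called with a pseudocount of 0.1, quantile scaling, the replicate block and without each library but WT replicate 2, without which it failed the filter. Among the tested members, Asic3 and the 12 called pathway genes, which were the genes recomputed, no direction was reversed. Of the pathway genes between 8 and 14 were called, and the calls of Ctsb, Elane, Slpi and Lgmn were lost in 12, 8, 8 and 4 alternatives. All tested genes gave 403 calls, 246 with the replicate block (235 shared) and 203 to 293 with 1 library left out, the fewest without WT replicate 1. limma-voom on the recovered reads called 543. The same replicate number did not pair libraries, as their deviations correlated at 0.059, -0.059 and -0.123. Calls lost with a library left out come with fewer samples, and for the block the cause was not tested. Depth limits Stfa2, Serpinb10, Serpinb2 and Serpinb8, which had 4, 2, 0 and 1 reads in the libraries labelled Asic3-null.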
